A study of Oryctolagus cuniculus with 134 samples.

Results

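The response of the aortic valve (AoV) to a cholesterol-rich diet was set against that of the pulmonary valve (PV) of the same rabbits. The comparison took every AoV and PV library of the Ctrl and CHT rabbits, 26 of the 134 libraries of the series, from 13 of its 27 rabbits (7 Ctrl and 6 CHT), with 1 library per valve and rabbit. All were male New Zealand White rabbits, 12 weeks old when the 16-week protocol began. Ctrl rabbits ate standard chow, and CHT rabbits ate chow with 0.3% cholesterol and received 25000 U of vitamin D2 per day, a dose given per 2.5 kg of body weight, for 15 days. Ctrl rabbits received no vitamin D2, so that CHT and Ctrl differ in both. Lard and IR/CHT rabbits enter the fits through the estimate of the spread. The Lard rabbits received the same vitamin D2 on chow with 5% lard and no added cholesterol, and their levels are given for a few genes. The IR/CHT rabbits received the CHT diet, vitamin D2 and cardiac irradiation with 24 Gy.

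The aortic valve sits on the left side of the heart and opens to systemic pressure, whereas the pulmonary valve opens to the low pressure of the right side. Cells that hold enough sterol shut down the SREBP2 program of cholesterol synthesis and lipoprotein uptake, and oxysterols at the same time activate the LXR receptors, which turn on cholesterol efflux genes. Macrophages that take up more lipoprotein cholesterol than they can export store it as ester droplets and become foam cells, with a large lysosomal compartment.

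The 26 libraries held 13978094 to 39026994 read pairs on genes, with a median of 18175358. RNA was taken from whole valves, so that fewer cells of a type and less RNA per cell cannot be told apart in any value below. Levels are given as read pairs scaled to a common library total (CPM), and changes as the log2 ratio of CHT to Ctrl ± SE. All 6 AoV CHT libraries were on plate 1, beside 3 of 7 AoV Ctrl libraries, 4 of 6 PV CHT and 5 of 7 PV Ctrl libraries. Plate 2 held no AoV CHT library, and values from plate 1 alone are therefore given beside several results. The 2 sets of valves differed in level for marker genes, none of which is specific to 1 valve, so that the AoV and PV labels were not checked by them. COL1A1, the chain of fibrillar collagen, reached 921 to 7340.0 CPM in the AoV Ctrl libraries and 200 to 318 CPM in the PV Ctrl libraries, and PECAM1, an endothelial marker, reached 20.04 to 278.7 and 546.2 to 999 CPM. Of the heart muscle genes, 4 Ctrl libraries stood apart with a summed level of 5933 to 15350 CPM (AoV L277 and L240, PV L200 and L263), against 221 to 2182 CPM in the other 22. Counts without these 4 libraries are given beside several results.

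Within a valve, calls needed a change of more than 1.5-fold beside an adjusted p-value below 0.05. The difference between the valves was tested directly as the interaction, the AoV response minus the PV response, where an adjusted p-value below 0.05 alone sufficed. Left only genes were called in AoV, did not reach the p-value threshold in PV and had a called interaction. Right only genes were the mirror image, and genes of the both class were called in each valve in the same direction.

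Far more genes responded in AoV than in PV. In AoV, 1297 genes were higher on CHT and 536 lower, 8.42% and 3.48% of 15408 tested. In PV, 7 genes were higher and 16 lower, 0.0484% and 0.111% of 14450 tested. The interaction was called for 702 of 15975 genes, with 641 larger in AoV (4.01%) and 61 smaller (0.382%). By class, 539 genes rose and 27 fell in AoV only (left only, together 4% of the 14155 genes tested in all 3 models), 18 genes responded in both valves, 1 was right only, and 0 moved in opposite directions. The 18 shared genes made up 0.982% of the AoV calls and 78.3% of the PV calls. Another 1249 AoV genes had no called difference from PV or were not tested there, and their absence from the left only class does not show an equal response.

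The median SE of a log2 change was 0.29 in AoV and 0.21 in PV over the genes tested in both. Of the 1297 genes that rose in AoV, 1093 were tested in PV, where their median log2 change was 0.16 against 1.37 in AoV. These genes were chosen by their AoV value, and 810 of the 1093 had the same sign in PV, beside 8600 of 14155 over all genes tested in both valves. The 503 AoV-lower genes tested in PV had medians of -1.21 in AoV and -0.25 in PV. In the plot of both responses, the left only genes lie mostly to the right of the vertical axis at PV values between -1.50 and 1.75, and ABCA1 and APOD are shared genes that lie off the line of equal response.

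**Figure D1:**
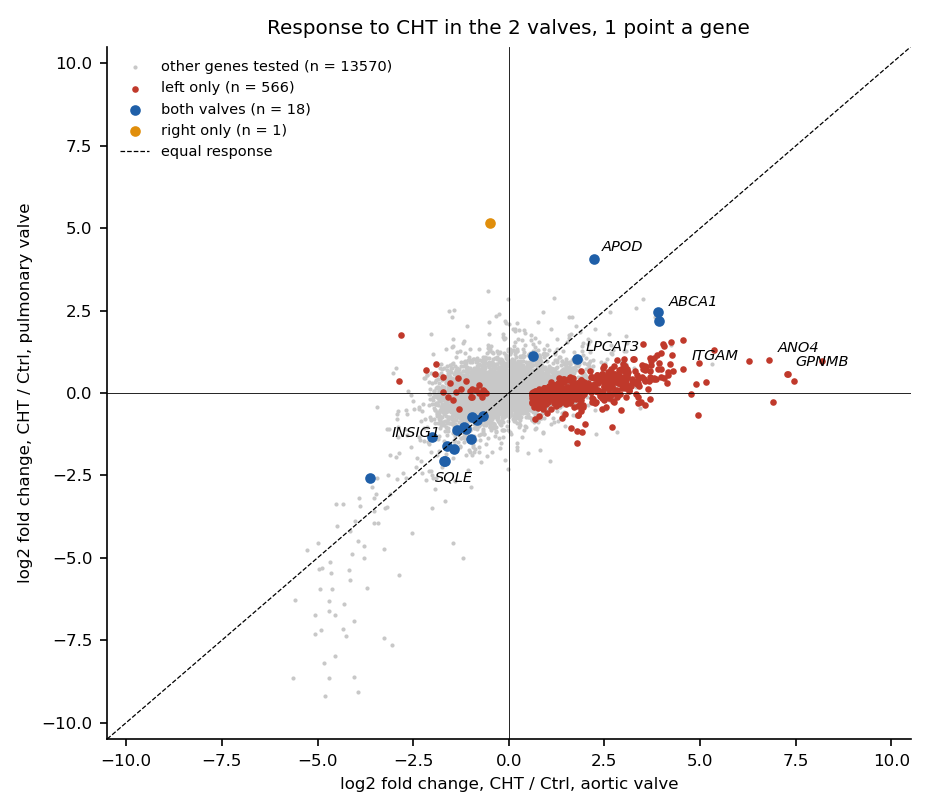
Log2 fold change of CHT over Ctrl in the aortic valve (x axis) and the pulmonary valve (y axis), 1 point for each gene tested in all 3 models, with left only genes in red (539 that rose and 27 that fell), genes of the both class in blue (n = 18) and the right only gene in orange (n = 1). Left only genes that rose have a median of 1.76 on the x axis and 0.08 on the y axis, and the grey points at the lower left include heart muscle genes.

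On plate 1 alone, 702 genes were higher and 124 lower in AoV, 10 and 13 in PV, and the interaction was called for 521 genes as larger and 30 as smaller in AoV. The left only class then held 446 genes, 374 of them shared with the full comparison, and the both class 14, of which 12 were shared. DESeq2 called 1338 higher and 1290 lower genes in AoV and 39 and 82 in PV, so that its AoV calls were split nearly evenly, and it placed 678 genes in the left only class (538 shared) and 91 in the both class. Without the 4 libraries rich in heart muscle RNA, 1632 genes were higher and 1330 lower in AoV, 17 were called in PV, and 747 were left only. The number of AoV calls ranged from 1320 without CHT L169 to 2628 without CHT L151.

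Of the 18 shared genes, 9 were on the list of sterol synthesis and uptake. Of 18 listed sterol genes tested, 14 fell and 1 rose in AoV and 10 fell in PV, with median log2 changes of -1.25 and -0.94 beside -0.02 and 0.00 over all genes. The summed level of the list was 435 to 1109 CPM in AoV Ctrl and 235.2 to 348 CPM in AoV CHT, and 342 to 601 CPM in PV Ctrl and 227.8 to 271.001 CPM in PV CHT. The groups did not overlap in either valve. The interaction was called for 1 of the 18 genes, STARD4.

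SQLE, squalene epoxidase, a control point of the late pathway, was between 13.0 and 48.0 CPM in AoV Ctrl (median 23.4) and between 3.92 and 12.7 CPM in AoV CHT (median 8.82). In PV the corresponding ranges were 13.3 to 43.4 (median 20.9) and 4.50 to 7.85 CPM (median 6.02), and the groups did not overlap in either valve. Its log2 change was -1.70 ± 0.28 in AoV and -2.05 ± 0.26 in PV (adjusted p = 9.08e-05 and 5.95e-05). MSMO1, the methylsterol monooxygenase, was between 7.88 and 29.3 CPM in AoV Ctrl (median 8.33) and between 2.47 and 7.13 CPM in AoV CHT (median 5.702). The PV level lay between 11.7 and 28.8 CPM in Ctrl (median 17.8) and between 5.198 and 8.002 CPM on CHT (median 6.10), so that its groups were separate in each valve. MSMO1 fell by 1.62 ± 0.35 in AoV and by 1.62 ± 0.21 in PV on the log2 scale (adjusted p = 0.0019 and 7.81e-05).

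Along the pathway, HMGCS1, FDFT1 and CYP51A1, which encode the HMG-CoA synthase, the squalene synthase and the lanosterol demethylase, and INSIG1, which retains the SREBP complex in the endoplasmic reticulum, fell in both valves. Their log2 changes ranged from -1.11 (HMGCS1) to -1.44 (INSIG1) in AoV and from -1.02 (FDFT1) to -1.71 (INSIG1) in PV. In PV the CHT libraries lay below all Ctrl libraries for each of them except CYP51A1. In AoV the groups of these 4 genes overlapped. Their interaction estimates lay between -0.25 for CYP51A1 (adjusted p = 0.655) and 0.25 for INSIG1 (adjusted p = 0.734). The AoV calls of HMGCS1 and FDFT1 were lost in 3 and 5 of the 26 fits that left out 1 library each, with adjusted p-values up to 0.0716 (without Ctrl L198) and 0.0725 (without CHT L265).

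A few sterol genes were called in 1 valve. ACAT2, FDPS, LSS, MVK and SREBF2, the last encoding SREBP2 itself, fell in AoV by 0.62, 1.11, 1.37, 1.64 and 2.05 on the log2 scale, and had PV values of -0.62, -0.85, -0.26, -0.28 and -0.83 that did not pass. None of these 5 interactions was called, the nearest being MVK at -1.37 ± 0.46 (adjusted p = 0.0765), although those of MVK and LSS passed without the 4 libraries rich in heart muscle RNA and that of MVK in DESeq2. NSDHL, an enzyme that removes sterol methyl groups, fell in PV from 18.9 to 34.1 CPM (median 27.3) to 12.6 to 14.2 CPM (median 13.5), and had a median of 17.9 CPM in AoV Ctrl and 14.5 CPM in AoV CHT. Its log2 change was -1.03 ± 0.14 in PV (adjusted p = 7.81e-05) and -0.49 ± 0.26 in AoV (adjusted p = 0.188), and the difference was not called (0.53 ± 0.29, adjusted p = 0.334).

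STARD4, a carrier that moves sterol between membranes, was the listed sterol gene that went up. It was at 2.04 to 7.67 CPM in AoV Ctrl and 8.13 to 16.1 CPM in AoV CHT, with no overlap, and at 3.43 to 6.85 and 1.58 to 4.45 CPM in PV. STARD4 rose by 1.48 ± 0.27 in AoV (adjusted p = 0.000291), its PV value was -0.65 ± 0.31 (adjusted p = 0.495), and the interaction was 2.10 ± 0.41 (adjusted p = 0.000465), with the AoV minus PV difference above that of every Ctrl rabbit in all 6 CHT rabbits.

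Of the listed LXR targets tested, 5 of 8 rose in AoV (median 1.83) and 2 of 6 in PV (median 0.76), and 2 interactions were called. With plate 1 libraries 3 rose in AoV, and without the 4 libraries rich in heart muscle RNA 1 rose in PV. ABCA1, the transporter that exports cholesterol to apolipoprotein A-I, was at 26.8 to 98.3 CPM in AoV Ctrl (median 55.6) and 633 to 1229.7 CPM in AoV CHT (median 730). In PV it was at 76.5 to 150.001 CPM (median 108) and 552.9 to 758 CPM (median 619). ABCA1 was thus lower in AoV than in PV on chow by its medians, and the CHT libraries of both valves lay above every Ctrl library.

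The log2 change of ABCA1 was 3.91 ± 0.29 in AoV (15.0-fold, adjusted p = 5.21e-10) and 2.47 ± 0.15 in PV (5.52-fold, adjusted p = 1.58e-11). Its interaction of 1.43 ± 0.31 was called (adjusted p = 0.00147), as on plate 1 alone (1.68, adjusted p = 0.00329), and in each of the 6 CHT rabbits the AoV minus PV difference lay above all 7 Ctrl rabbits. It was the 1 gene of the both class with a called interaction. LPCAT3, which places polyunsaturated chains in phospholipids, rose by 1.78 ± 0.24 in AoV and 1.02 ± 0.19 in PV (adjusted p = 5.21e-06 and 0.0075), with separate groups in each valve and an interaction of 0.74 ± 0.30 (adjusted p = 0.176; 0.0217 on plate 1 alone). NR1H3, which encodes LXR alpha, rose in AoV from a median of 5.86 to 27.5 CPM (1.92 ± 0.28, adjusted p = 1.51e-05). In PV its medians were 4.10 and 10.497 CPM, with no overlap of the libraries, and the log2 change of 1.27 ± 0.29 had an adjusted p of 0.0739 (0.00298 in DESeq2). MYLIP, a ubiquitin ligase of the LXR program, was not called in either valve (0.53 ± 0.24 and 0.32 ± 0.10).

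The other shared genes had no common list. APOD, a lipocalin that carries small lipids, was at 20.4 to 195.1 CPM in AoV Ctrl and 207 to 807 CPM in AoV CHT, and at 5.88 to 61.1 and 192.2 to 1284.5 CPM in PV. The groups were separate in both valves, and APOD rose by 2.22 ± 0.60 in AoV and 4.07 ± 0.63 in PV (adjusted p = 0.0128 and 0.00105). The PV change of APOD was thereby the larger estimate, 16.8-fold against 4.67-fold, but the interaction of -1.84 ± 0.82 was not called (adjusted p = 0.22), and on plate 1 alone neither valve passed (adjusted p = 0.108 and 0.0588). GCLC, the catalytic subunit for glutathione synthesis, rose by 0.62 ± 0.18 in AoV and 1.13 ± 0.15 in PV (adjusted p = 0.0195 and 9.75e-05), and its AoV value fell under the fold threshold in DESeq2 (0.56) and without 1 of the libraries, and missed the p-value threshold on plate 1 alone (0.65, adjusted p = 0.0834). ENSOCUG00000029958, which has no symbol in the tables, rose by 3.91 ± 0.43 and 2.198 ± 0.332.

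TBX20, a transcription factor of valve and heart development, fell from 350 to 546.6 CPM to 144 to 294 CPM in AoV and from 286 to 372 CPM to 181.9 to 236.9 CPM in PV. Its groups were separate in both valves (log2 changes -0.96 ± 0.23 and -0.73 ± 0.15, adjusted p = 0.00479 and 0.04), although the PV call was lost in 12 of the 26 fits without 1 library (adjusted p up to 0.122, without CHT L230) and both calls were lost on plate 1. TSC22D3, a glucocorticoid-induced leucine zipper, fell by 0.68 ± 0.19 and 0.70 ± 0.13, and CRY1, a repressor of the circadian clock, by 0.998 ± 0.289 in AoV (95% interval in PV -1.96 to -0.84). CRY1 lost its AoV call without CHT L169 (adjusted p = 0.0537), and its PV call in 3 such fits (adjusted p up to 0.0579). TSC22D3 lost its AoV call in 1 such fit, and on plate 1 alone the PV calls of TSC22D3 and CRY1 were lost (adjusted p = 0.197 and 0.244). ENSOCUG00000007493, without a symbol, fell by 1.66 ± 0.51 and 2.06 ± 0.24.

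The left only genes that rose included many genes of foam cells, lysosomes and leukocytes. The 539 genes had median log2 changes of 1.76 in AoV and 0.08 in PV. The AoV libraries of Ctrl and CHT did not overlap for 436 of them, beside 4.93% of all AoV-tested genes with CHT above Ctrl, and the PV libraries for 5, beside 0.36% of PV-tested genes. For 342 of the 539, the AoV minus PV difference was higher in all 6 CHT rabbits than in any Ctrl rabbit, beside 3.13% of all genes tested for the interaction. The class was chosen by calls on these same libraries, and the counts are a description.

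GPNMB, a glycoprotein of lipid-laden macrophages, had the smallest interaction p-value of the genes named here. It was at 4.04 to 12.2 CPM in AoV Ctrl (median 7.15) and 544.8 to 2022 CPM in AoV CHT (median 884). In PV it was at 2.94 to 7.53 CPM in Ctrl (median 6.43) and 7.04 to 12.8 CPM on CHT (median 9.17). No AoV CHT library came near any library of the other 3 groups, whereas the PV groups overlapped. GPNMB rose by 7.26 ± 0.42 in AoV (adjusted p = 4.61e-12), its PV value was 0.57 ± 0.30 (adjusted p = 0.523), and the interaction was 6.67 ± 0.49 (adjusted p = 3.98e-14). On plate 1 alone the AoV and PV values were 7.24 and 0.74.

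Of the foam cell genes, 9 of 11 tested rose in AoV and 0 passed in PV (medians 2.61 and 0.53), and 6 interactions were called. Over all genes 0.0484% were called higher and 0.111% lower in PV. At such shares 0 PV calls in a list this short, here and below, say little about its members. SPP1, or osteopontin, was at 45.5 to 106 CPM in AoV Ctrl and 593 to 1856 CPM in AoV CHT, against 25.3 to 75.6 and 35.5 to 186.4 CPM in PV. SPP1 rose 17.8-fold in AoV (4.15 ± 0.43, adjusted p = 1.07e-07) with an interaction of 3.49 ± 0.59 (adjusted p = 4.40e-05). ATP6V0D2, a proton pump subunit of osteoclasts and macrophages, and LGALS3, galectin-3, rose by 6.91 and 2.61 in AoV, with PV values of -0.27 and 0.17.

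MMP12, the macrophage elastase, was all but absent on chow. The 7 AoV Ctrl libraries held 4 read pairs in all and the 6 AoV CHT libraries 42229, or 93.0 to 592 CPM per library. The ratio was 9330 (95% counting interval 3650 to 34300). In PV the sums were 6 and 60 read pairs (ratio 11.3, interval 4.88 to 31.9), and these intervals cover counting error only. MMP12 rose in AoV (adjusted p = 1.67e-08) and did not pass in PV (adjusted p = 0.18). Its interaction missed the threshold (adjusted p = 0.0548), but passed in DESeq2 (adjusted p = 3.02e-07) and with the rabbit as block (adjusted p = 0.0477), and was 0.296 without the 4 libraries rich in heart muscle RNA. MMP12 is therefore not among the left only genes.

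Of 24 lysosomal genes tested, 18 rose in AoV and 0 were called in PV (medians 1.39 and -0.03), with 17 called interactions. From plate 1 libraries 12 rose and 14 interactions were called. CTSB, cathepsin B, was at 270.9 to 464 CPM in AoV Ctrl and 1452 to 3577 CPM in AoV CHT. In PV it was at 278.3 to 475 CPM in Ctrl and 299 to 475 CPM on CHT. The AoV groups were far apart, and the PV groups covered nearly the same range. CTSB rose by 2.39 ± 0.24 in AoV (5.26-fold, adjusted p = 4.90e-08), with a PV value of -0.10 (95% interval -0.36 to 0.16).

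CTSS, the cathepsin that trims the invariant chain, rose from 5.93 to 13.2 CPM to 104 to 278.7 CPM in AoV (4.13 ± 0.37), and was at 15.7 to 31.2 and 22.7 to 35.4 CPM in PV. GLB1 and GUSB, lysosomal glycosidases, rose by 2.44 ± 0.20 and 2.74 ± 0.25, with PV values of -0.05 and -0.24. CTSK, the collagen-degrading cathepsin K, rose by 2.47 ± 0.31, with 0.06 in PV. All 4 had called interactions between 2.40 and 3.78 and separate AoV groups. The subunits ATP6V1A, ATP6V1B2, ATP6V1C1 and ATP6V1H of the proton pump that acidifies lysosomes were also left only, at 1.74, 1.56, 1.43 and 1.41 in AoV and 0.04, -0.17, 0.09 and 0.04 in PV.

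Of 15 genes tested that handle cholesterol inside cells, 8 rose and 1 fell in AoV and 0 passed in PV (medians 1.08 and -0.09), with 8 called interactions. LIPA, the acid lipase that frees cholesterol from lipoprotein esters, was at 7.52 to 34.3 CPM in AoV Ctrl and 116 to 236.5 CPM in AoV CHT, and at 36.7 to 52.6 and 49.5 to 72.0 CPM in PV. On chow every PV library exceeded every AoV library, and on CHT the order was turned. LIPA rose by 2.87 ± 0.30 in AoV (adjusted p = 1.28e-07), with 0.31 ± 0.14 in PV and an interaction of 2.54 ± 0.33 (adjusted p = 3.41e-07).

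PLIN2, a coat protein of lipid droplets, rose by 1.71 ± 0.23 in AoV with 0.12 in PV, and NPC2, which binds cholesterol in the lysosome, by 1.43 ± 0.17 with 0.09. SOAT1, the enzyme that esterifies cholesterol for storage, and the scavenger receptors MSR1 and CD36 were left only as well (1.502, 3.00 and 1.78 in AoV; -0.09, 1.02 and -1.15 in PV). The AoV call and the interaction of CD36 were both lost on plate 1 alone and with Ctrl and CHT libraries alone, and the interaction also with the rabbit as block. CYP27A1, sterol 27-hydroxylase, was the gene of this list that fell in AoV (-0.71), a call that was lost on plate 1 alone. The plot of levels by library shows ABCA1, SQLE and MSMO1 moving in both valves and GPNMB, CD68, CTSB and HLA-DRA in AoV.

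**Figure D2:**
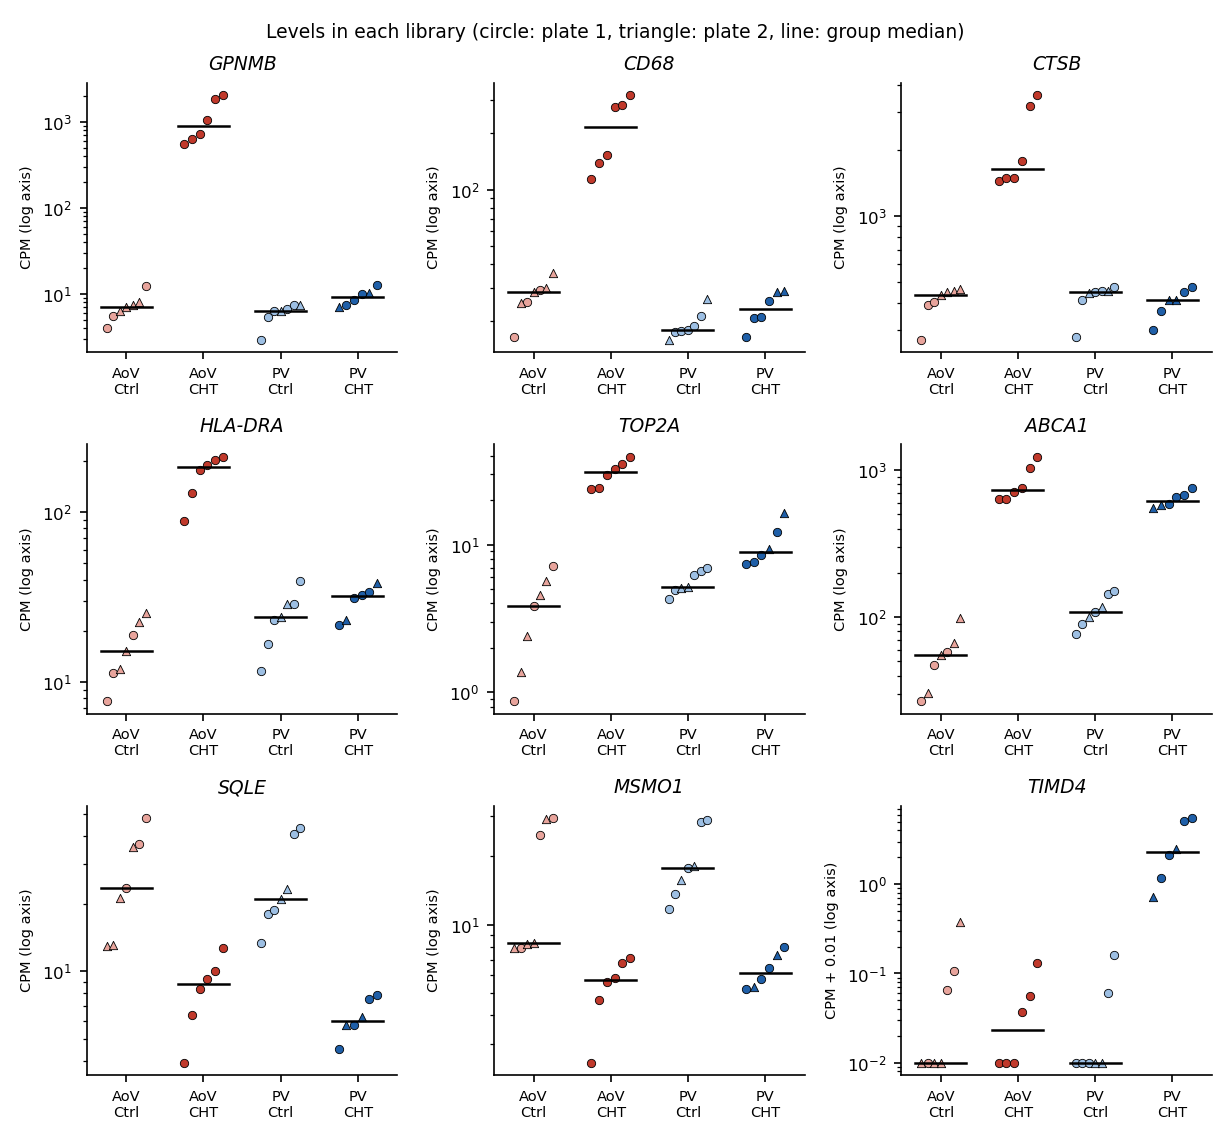
Level of 9 genes in each library (CPM, log axis; 0.01 added for TIMD4), in the AoV and PV of Ctrl and CHT rabbits, with plate 1 as circles, plate 2 as triangles and the group median as a line. GPNMB is at 544.8 to 2022 CPM in the AoV CHT libraries and at most 12.8 CPM in all others, and TIMD4 is at 0.715 to 5.47 CPM in PV CHT and at most 0.368 CPM elsewhere.

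In the Lard rabbits, which received vitamin D2 without added cholesterol, ABCA1 was at 32.3 to 89.5 CPM in AoV and 98.8 to 155.7 CPM in PV. GPNMB was at 7.48 to 19.3 CPM in their AoV libraries, and SQLE at 10.79 to 29.1 CPM in their PV libraries. These levels lay apart from those of the CHT rabbits and across or near those of the Ctrl rabbits. SPP1 was at 50.5 to 372 CPM in Lard AoV, above the Ctrl range in part and below every CHT library. The response of the Lard rabbits was not tested here.

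Macrophage markers were higher in AoV on CHT. Their summed level was 287 to 771 CPM in AoV Ctrl (median 658) and 1342 to 1989 CPM in AoV CHT (median 1797). In PV it was 721 to 931 CPM (median 858) and 713.5 to 1096 CPM (median 992). On chow the sum thus tended to be higher in PV than in AoV, and on CHT it was higher in every AoV library than in any PV library. The order on chow was not shared by all markers. By Ctrl medians MRC1 (138 CPM in AoV, 348 in PV) and CD163 (54.5 and 94.7) were higher in PV. CD68 (28.4 and 17.8), CSF1R (87.3 and 56.3) and C1QA (40.3 and 26.1) were higher in AoV. Of 19 markers tested, 13 rose in AoV and 0 passed in PV (medians 2.19 and 0.32), and 11 interactions were called.

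CD68, a lysosomal glycoprotein of macrophages, was at 16.4 to 36.0 CPM in AoV Ctrl (median 28.4) and 114 to 317 CPM in AoV CHT (median 214). In PV it was at 15.9 to 26.3 CPM (median 17.8) and 16.3 to 28.8 CPM (median 23.2), with overlap. CD68 rose 7.78-fold in AoV (2.96 ± 0.24, adjusted p = 1.96e-09), with 0.25 ± 0.16 in PV and an interaction of 2.69 ± 0.29 (adjusted p = 3.90e-09).

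ITGAM, the alpha chain of the phagocyte integrin Mac-1, rose by 4.55 ± 0.33 in AoV. In PV the ITGAM libraries were just apart, at 5.00 to 10.2 and 10.3 to 17.0 CPM, but its value of 0.74 ± 0.21 was not called (adjusted p = 0.202), and the interaction was 3.80 ± 0.38 (adjusted p = 8.15e-10). CD14, AIF1, TYROBP and FCER1G were also left only, with AoV values of 3.33, 2.47, 2.91 and 3.24. The list did not move as a whole. CD163, a scavenger receptor for haemoglobin, was at 12.3 to 72.1 and 13.5 to 63.7 CPM in AoV, and neither it (-0.12 ± 0.51) nor the mannose receptor MRC1 (0.34 ± 0.55) nor C1QA, a chain of C1q (0.39 ± 0.36), was called in AoV. CSF1R, the receptor for macrophage colony-stimulating factor, rose in AoV by 1.13 ± 0.28 (adjusted p = 0.00648), a call that was lost on plate 1 alone (adjusted p = 0.0687). Its interaction of 1.01 ± 0.34 missed the threshold (adjusted p = 0.0759, against 0.036 with the rabbit as block and 0.141 on plate 1 alone). AoV minus PV was above every Ctrl rabbit in 5 of 6 CHT rabbits for CSF1R and in 0 of 6 for CD163.

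Of the leukocyte integrins and actin regulators, 19 of 21 rose in AoV (median 2.66), 0 of 20 passed in PV (median 0.38) and 15 interactions were called. From plate 1 libraries 14 rose with 11 interactions, and without the 4 libraries rich in heart muscle RNA 16 rose with 11. ITGAL, the alpha chain of LFA-1, went from 0.558 to 2.37 CPM to 42.1 to 206 CPM in AoV (6.27 ± 0.47), and was at no more than 3.62 CPM in the PV libraries of these groups. Of the innate receptors and their signalling genes, 12 of 17 rose in AoV (medians 2.02 and 0.21, 11 interactions), among them the Toll-like receptors TLR1, TLR2, TLR4 and TLR8 (2.34, 1.58, 2.02 and 2.28) and the kinase SYK (2.68 ± 0.29, with 0.19 in PV). The interaction of TLR8 was not called on plate 1 alone. C5AR1 and C3AR1, the anaphylatoxin receptors, rose by 2.63 and 2.62 and gave the 2 called interactions among 12 complement genes, of which 4 rose (2 on plate 1 alone).

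Of the genes for MHC class II presentation, by which antigen is shown to helper T cells, 5 of 8 tested rose in AoV. In PV 0 of 7 rose, and 5 interactions were called. The list holds accessory genes such as CD74 and CTSS beside class II chains, and CTSS is on the macrophage and lysosome lists too. HLA-DRA was at 7.67 to 25.4 CPM in AoV Ctrl and 88.9 to 212 CPM in AoV CHT, and at 11.6 to 39.0 and 21.6 to 38.3 CPM in PV. The AoV groups did not overlap and the PV groups did. HLA-DRA rose by 3.35 ± 0.35 in AoV (adjusted p = 9.41e-08), with 0.26 ± 0.31 in PV and an interaction of 3.07 ± 0.47 (adjusted p = 7.57e-06). CD74, the invariant chain, rose by 2.54 ± 0.30, with 0.38 ± 0.30 in PV.

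Lymphocyte markers were few and low. T cell markers summed to 2.64 to 6.80 CPM in AoV Ctrl and 18.8 to 37.9 CPM in AoV CHT, and to 1.20 to 3.92 and 1.18 to 4.01 CPM in PV, and 3 of 8 tested rose in AoV with 2 interactions. IL7R, the interleukin-7 receptor, rose from 0.670 to 2.93 CPM to 8.97 to 19.0 CPM (3.23 ± 0.43; interaction 2.77 ± 0.67, adjusted p = 0.0057). B cell markers summed to 5.33 to 20.9 and 19.6 to 98.6 CPM in AoV, and 3 of 6 rose with 3 interactions, against 1 of 5 and 1 on plate 1 alone. CD22, an inhibitory B cell lectin, rose from 0.199 to 2.69 CPM to 14.3 to 71.4 CPM in AoV (4.95 ± 0.54) and lay at or under 0.721 CPM in the PV libraries of Ctrl and CHT rabbits. Much of the rise in the B cell sum was CD22. Its AoV medians were 0.914 CPM in Ctrl and 32.2 CPM on CHT, where those of the sum were 10.9 and 41.4 CPM. Of 9 neutrophil markers, 1 rose in AoV, near the 8.42% over all genes, against 0 of 8 on plate 1 alone. No interaction of theirs was called, and their sum was 2.74 to 8.15 and 8.45 to 14.3 CPM in AoV.

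Of 16 chemokines and receptors, 6 rose in AoV (3 on plate 1 alone), and 0 interactions were called, against 1 with the rabbit as block and 1 without the 4 libraries rich in heart muscle RNA. Among them, CCL2, which recruits monocytes, rose by 2.11 in AoV and had 1.25 in PV. Of 17 cytokines and TNF family genes, 4 rose in AoV (1 on plate 1 alone), and the interaction of IL1RN, the interleukin-1 receptor antagonist, was called (3.79 in AoV, 0.47 in PV). Of 17 interferon response genes, 7 rose with 3 interactions (OASL, IFIT3 and GBP1), but on plate 1 alone 2 rose and 0 interactions were called (adjusted p = 0.0869, 0.201 and 0.153). In PV, 0 genes of these lists passed, beside 0.0484% higher and 0.111% lower over all genes, which says little for lists this short.

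Most cell division genes rose in AoV. Of 35 tested, 33 rose in AoV and 0 of 33 passed in PV (medians 2.90 and 0.59), with 22 interactions. The summed level was 107 to 186.6 CPM in AoV Ctrl and 376 to 595 CPM in AoV CHT, and 201.1 to 225 and 214 to 331 CPM in PV. TOP2A, the topoisomerase of dividing cells, was at 0.870 to 7.21 CPM in AoV Ctrl (median 3.85) and 23.8 to 39.4 CPM in AoV CHT (median 31.0). In PV it was at 4.31 to 6.92 CPM (median 5.20) and 7.43 to 16.3 CPM (median 8.95). TOP2A was therefore separate between the groups in both valves, but its PV value of 0.83 ± 0.21 was not called (adjusted p = 0.107, though called in DESeq2). The interaction of 2.18 ± 0.45 was called (adjusted p = 0.0011).

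CENPE, a kinetochore motor, rose by 3.05 ± 0.46 in AoV with 0.26 ± 0.26 in PV, and NCAPH, a condensin subunit, by 1.90 ± 0.21 with -0.03 ± 0.21. Of 28 DNA replication genes, 9 rose in AoV (6 on plate 1 alone) with 5 interactions, and 9 interactions with the rabbit as block. MCM4, a subunit of the replicative helicase, rose by 2.34 ± 0.27 in AoV with 0.29 ± 0.21 in PV.

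Among the left only genes outside these lists or at their edges, ANO4, a scramblase and ion channel, went from 0.396 to 1.69 CPM to 40.1 to 191.9 CPM in AoV (6.80 ± 0.39, 112-fold), and was at most 1.07 CPM in the PV libraries of Ctrl and CHT rabbits. PLAU, the urokinase plasminogen activator, rose by 2.54 ± 0.27 with -0.42 ± 0.19 in PV, and CCDC15 by 2.54 ± 0.20 with -0.08 ± 0.15. CD44, the hyaluronan receptor, ALCAM, a ligand of CD6, and CCN3, a matricellular protein, rose by 1.41 ± 0.17, 2.62 ± 0.33 and 2.17 ± 0.27 in AoV. For all 6 the AoV minus PV difference was above every Ctrl rabbit in 6 of 6 CHT rabbits. On plate 1 alone the interaction of CD44 was not called (0.97, adjusted p = 0.0742).

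Of the remaining lists with interactions, iron and heme handling had 6 of 11 genes higher in AoV and 3 interactions, endothelial and leukocyte adhesion 3 of 14 and 3, proteases and inhibitors 8 higher and 2 lower of 26 and 3, matricellular genes 5 higher and 1 lower of 16 and 2, osteogenic genes 2 of 15 and 2, and glutathione and oxidative defense 5 of 11 and 1. Over all genes 8.42% were higher in AoV and 4.01% had an interaction larger in AoV, and the counts of glutathione interactions and of higher osteogenic genes lie near these shares. The osteogenic genes that rose were SPP1 and IBSP, a bone sialoprotein (2.94 in AoV, too low to be tested in PV, and not called on plate 1 alone). The interactions of FTL, the ferritin light chain, CAT, catalase, SELE, E-selectin, and the interferon gene GBP1 were lost on plate 1 alone and in several other fits. In that fit 2 iron and heme, 5 protease, 2 matricellular and 0 glutathione genes rose, and 1 adhesion interaction was called.

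The 27 left only genes that fell had medians of -1.24 in AoV and 0.08 in PV. Their number depended on the setting, with 113 in DESeq2, 104 without the 4 libraries rich in heart muscle RNA, 52 with DESeq2's size factors, 15 on plate 1 alone and 8 with the plate as covariate. Leaving out 1 library gave as few as 13 (without AoV Ctrl L150), 71 without AoV Ctrl L277, and the most without AoV CHT L151, more than in DESeq2. The AoV libraries were separate for 9 of them, beside 0.584% of AoV-tested genes with CHT below Ctrl, and for 0 in PV, beside 0.311%. PRKG1, the cGMP-dependent kinase of smooth muscle relaxation, was at 157.2 to 383 CPM in AoV Ctrl and 85.1 to 132 CPM in AoV CHT, and at 168.9 to 206 and 145 to 216 CPM in PV. PRKG1 fell by 0.97 ± 0.17 in AoV (adjusted p = 0.000126), with -0.12 ± 0.14 in PV and an interaction of -0.87 ± 0.21 (adjusted p = 0.00759).

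FHOD3, a formin that assembles actin, fell from 80.3 to 189.4 CPM to 55.0 to 92.7 CPM in AoV (-0.97 ± 0.20), with 0.11 ± 0.12 in PV and an interaction of -1.09 ± 0.23 (adjusted p = 0.00147). In FHOD3, PRKG1 and ZNF274, a zinc finger protein, all 6 CHT rabbits had an AoV minus PV difference below every Ctrl rabbit. MAP3K21, a kinase, fell by 1.02 ± 0.24 and GRID2IP by 2.87 ± 0.70, with 0.07 and 0.36 in PV. RAB4A, SOCS2, CFAP57, SPOCK2 and SNORA35B had AoV values between -0.64 and -1.54.

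Leaving out 1 library ended a call of SPOCK2, RAB4A, ZNF274, SOCS2 or SNORA35B in at least 1 fit each. On plate 1 alone the interactions of SPOCK2, GRID2IP, CFAP57 and SNORA35B were not called, with adjusted p-values of 0.174 and 0.0602 for SPOCK2 and GRID2IP. The AoV calls of SPOCK2, CFAP57 and SNORA35B were lost there too (adjusted p = 0.0675, 0.132 and 0.0926). With the rabbit as block over all treatments the interaction of SPOCK2 was lost, and over Ctrl and CHT also those of GRID2IP and SOCS2.

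In the structural lists 0 interactions were called among the 15 endothelial, 16 smooth muscle, 21 collagen, 25 proteoglycan, 30 TGF-beta and BMP, 30 Wnt, 20 valve transcription factor, 17 respiratory chain, 6 adipocyte, 3 red blood cell, 6 nerve and 5 mesothelial genes tested. In AoV, 0, 4, 3, 1, 5, 3, 5, 1, 2, 0, 1 and 1 of these genes were called in either direction. Over all genes 8.42% were higher and 3.48% lower in AoV, and 4.01% and 0.382% had an interaction larger and smaller in AoV. The collagen, Wnt and TGF-beta and BMP counts lie near the AoV shares. In lists this short, 0 interactions lie little below the interaction shares. These AoV counts moved to 9 valve transcription factor, 6 respiratory chain and 6 Wnt genes without the 4 libraries rich in heart muscle RNA, and to 1 valve transcription factor, 0 collagen and 1 TGF-beta and BMP gene on plate 1. Without the 4 libraries, 3 respiratory chain and 2 TGF-beta and BMP interactions were called as larger in AoV. With the rabbit as block there were 2 Wnt, 1 TGF-beta and BMP and 1 valve transcription factor interactions, and on plate 1 alone 1 collagen interaction. Endothelial markers had medians of -0.10 in AoV and -0.12 in PV, and the AoV median was -0.56 without the 4 libraries and 0.15 on plate 1. ACTA2, smooth muscle actin, rose in AoV from 140 to 278.4 CPM to 306 to 507 CPM (0.996 ± 0.207, adjusted p = 0.00123), with an interaction of 0.69 ± 0.52 (adjusted p = 0.498). COL1A1 and ACAN, the core protein of aggrecan, were not called in either valve (-0.18 ± 0.62 and -0.48 ± 0.29 in AoV, 0.22 ± 0.46 and -0.67 ± 0.32 in PV), and MYH11, smooth muscle myosin, had an interaction of 1.94 ± 1.16 (adjusted p = 0.376).

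**Figure D3:**
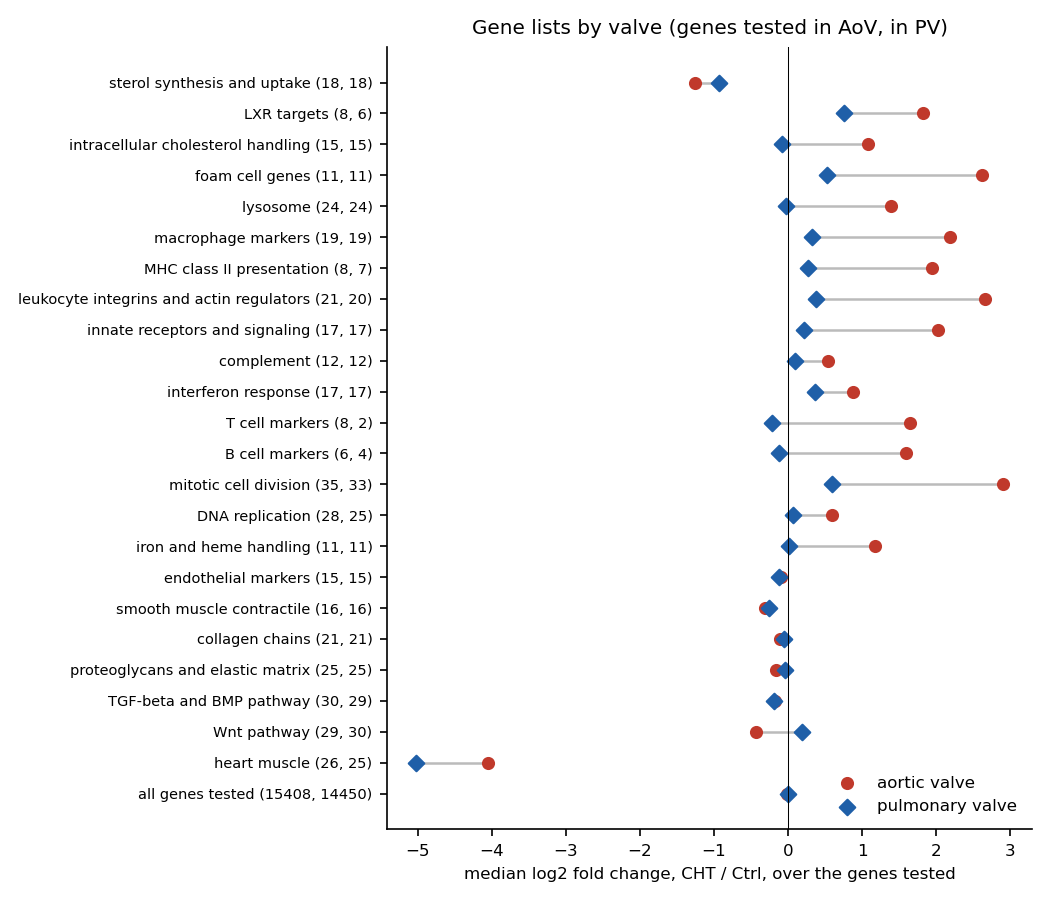
Median log2 fold change of CHT over Ctrl over the tested genes of 23 lists and of all genes, in the aortic valve (circles) and the pulmonary valve (diamonds), with the number tested in each valve in parentheses. Sterol genes lie at -1.25 and -0.94, whereas macrophage markers lie at 2.19 and 0.32 and lysosomal genes at 1.39 and -0.03.

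Heart muscle genes fell in AoV on CHT, and none passed in PV. Their summed level was 673 to 15346 CPM in AoV Ctrl (median 1455) and 321 to 795 CPM in AoV CHT (median 428), and 293 to 7425 CPM in PV Ctrl (median 629) and 221 to 327 CPM in PV CHT (median 260). In AoV 19 of 26 fell (median -4.05) and in PV 0 of 25 passed, although the PV median was -5.02, and 0 interactions were called. MYH7, the slow myosin heavy chain, was at 115 to 10038 CPM in AoV Ctrl and 5.07 to 308 CPM in AoV CHT, and at 18.5 to 4544 and 5.72 to 29.8 CPM in PV. Its level varied widely among the Ctrl libraries of each valve, and the ranges overlapped. On plate 1 alone 2 heart muscle genes fell in AoV (median -2.02), and without the 4 richest Ctrl libraries 12 fell (medians -2.15 in AoV and -2.18 in PV). The part of heart muscle RNA in the AoV counts was not tested beyond these values. Without these 4 libraries the macrophage list had 13 genes called higher in AoV and 10 called interactions, the lysosome list 17 and 16, and the mitotic list 33 and 21.

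**Figure D4:**
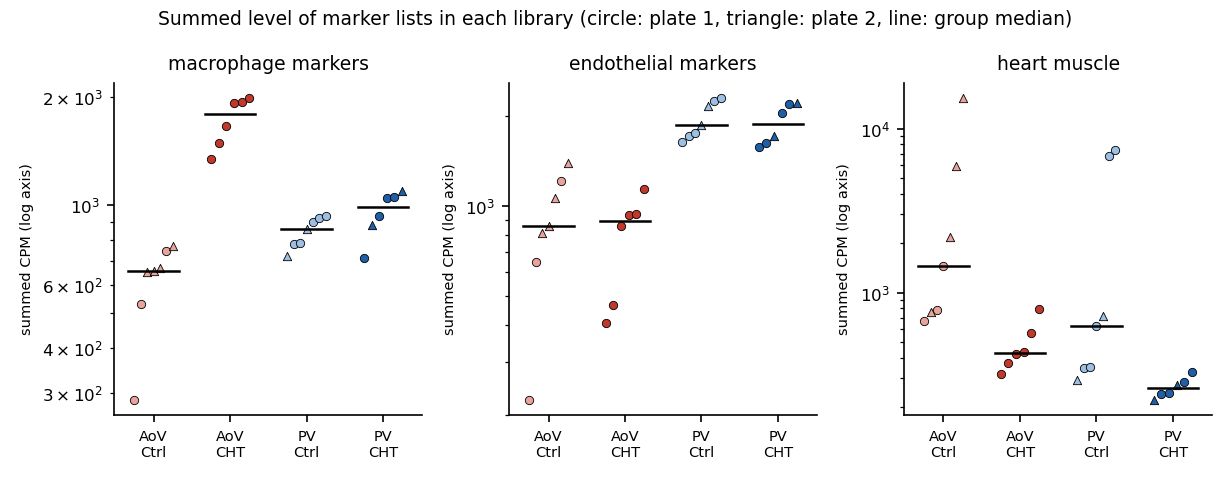
Summed level of macrophage, endothelial and heart muscle markers in each library (CPM, log axis), in the AoV and PV of Ctrl and CHT rabbits, with plate 1 as circles, plate 2 as triangles and the group median as a line. Macrophage sums are at 1342 to 1989 CPM in AoV CHT and at most 1096 CPM in the other groups, while 4 Ctrl libraries reach 5933 to 15350 CPM of heart muscle RNA.

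On the right side little was particular to PV. The right only gene, ENSOCUG00000010503, has no symbol, and its call rested on the PV CHT library L230, which held 124 CPM, whereas the other PV CHT libraries held 0.683 to 2.23 CPM and the Ctrl libraries of both valves at most 1.34 CPM. ENSOCUG00000010503 had a PV value of 5.17 ± 1.03 (adjusted p = 0.0228) and, without L230, 0.93 (adjusted p = 0.749). With the rabbit as block its interaction fell from -5.72 to -2.16 (adjusted p = 0.164), and 0 genes were right only.

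TIMD4, a phosphatidylserine receptor of resident macrophages, showed the opposite of the macrophage list. The 7 PV Ctrl libraries held 0 to 0.150 CPM (median 0) and the 6 PV CHT libraries 0.715 to 5.47 CPM (median 2.28). In AoV it was at 0 to 0.368 CPM in Ctrl and 0 to 0.120 CPM on CHT. All PV CHT libraries lay above every library of the other 3 groups, by 296 read pairs in all against 4 in PV Ctrl (ratio 83.3, 95% counting interval 32.2 to 308), while AoV held 8 and 4.

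TIMD4 rose in PV (6.17 ± 1.003, adjusted p = 0.00149) and its interaction of -7.26 ± 1.76 was called (adjusted p = 0.00623). In all 6 CHT rabbits the AoV minus PV difference was below every Ctrl rabbit. The AoV counts of TIMD4 were too low to be tested on their own, which kept it out of the right only class. With both valves in 1 model its AoV value was -1.05 (adjusted p = 0.558) and it became right only. The interaction was called on plate 1 alone (adjusted p = 0.0469) and with the block (adjusted p = 0.0412), but was lost without AoV Ctrl L240 (adjusted p = 0.101) and without the 4 libraries rich in heart muscle RNA (adjusted p = 0.059).

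The other PV calls outside the both class were NSDHL, WEE1 and ENSOCUG00000002977, which fell in PV. WEE1, a kinase that holds back mitosis, was at 10.48 to 18.0 CPM in PV Ctrl and 6.87 to 10.7 CPM in PV CHT, and at 7.33 to 18.4 and 7.95 to 13.1 CPM in AoV. Its PV value of -0.83 ± 0.17 (adjusted p = 0.031) was lost in 8 of the 26 fits without 1 library (adjusted p up to 0.11, without CHT L230), and its interaction of 0.56 ± 0.26 was not called (adjusted p = 0.247). ENSOCUG00000002977 had -0.65 ± 0.13 in PV and 0.24 ± 0.39 in AoV, with an interaction of 0.88 ± 0.40 (adjusted p = 0.236), and its PV call was also lost in 8 such fits (adjusted p up to 0.0865, without CHT L246). A difference between the valves was thus called for none of these 3 genes.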

How the data were processed

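Values are the whole-number gene counts that the authors deposited in 1 table per plate. Per the paper's methods, reads of the stranded libraries were trimmed, mapped to the rabbit genome and counted with the nf-core/rnaseq pipeline. The submitters' processing notes name bcl2fastq 2.20 and OryCun2.0. Counts are read pairs per gene without normalization. Column headers hold a rabbit number, the tissue and a library number, and the library number was matched to the sample title, which gave the group.

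All models were fitted with edgeR 4.0.16 under R 4.3.3 (filterByExpr, TMM, robust quasi-likelihood test). Each valve was fitted over its libraries of all 4 treatments, which then share 1 estimate of the spread, and the interaction over the 54 libraries of both valves. P-values were adjusted by Benjamini-Hochberg over all genes tested. The SE of a log2 change was obtained from the test, as its absolute value over the square root of the quasi-likelihood F statistic. The 95% interval of a change was built from this SE with a t quantile. Libraries of a group came from different rabbits. A gene with few counts in all libraries is limited by depth: 1 read pair was 0.0268 to 0.0791 CPM. A ratio of summed counts has a 95% interval for counting error only. Same-numbered samples came from the same rabbit. With group means removed, the 2 valves of a rabbit had a median correlation of 0.182 over 27 rabbits, against -0.00796 between rabbits, and 19 exceeded 0.1.

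The comparison, the 37 gene lists and the rule for named genes were chosen with earlier results of these data known. Named were all genes of the both and right only classes, the 10 left only genes in each direction with the smallest interaction p-values, up to 3 classed genes per list, and fixed genes. TIMD4, WEE1, NSDHL, NR1H3, MMP12, MRC1, C1QA, the genes without symbols and further list members were named after their values were seen. The fixed genes IDI1, ABCG1, MKI67 and VCAM1, were not matched by symbol and not analysed here, and a few genes under this rule are not reported here.

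Alternatives were DESeq2 1.42.0, its size factors in edgeR, no filter, Ctrl and CHT libraries alone, both valves in 1 model, the plate as covariate, plate 1 alone, the rabbit as block and leaving out each library. Leaving out 4 libraries rich in heart muscle RNA was chosen after seeing the data. The scripts were tested on simulated data.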

Additional observations from a re-analysis of the deposited data

Results flagged for a closer look

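The response differed between the valves by the interaction test for 702 genes. Among genes described by library with a called interaction, the AoV minus PV response was largest for GPNMB (6.67), ANO4 (5.80), CD22 (5.60) and ITGAL (5.29), followed by ITGAM (3.80), CTSS (3.78), SPP1 (3.49) and HLA-DRA (3.07). It was 2.96 for GUSB, 2.94 for PLAU, 2.77 for CENPE and IL7R, 2.70 for C5AR1, 2.69 for CD68, 2.59 for CCDC15, 2.54 for LIPA, 2.48 for CTSB, 2.47 for GLB1, SYK and ALCAM, 2.41 for CCN3 and 2.40 for CTSK. It was 2.18 for TOP2A, 2.14 for CD74, 2.10 for STARD4, 2.03 for MCM4, 1.91 for NCAPH, 1.57 for PLIN2, 1.43 for ABCA1, 1.32 for NPC2 and 0.96 for CD44. On the negative side it was -7.26 for TIMD4, -5.72 for ENSOCUG00000010503, -3.24 for GRID2IP, -1.87 for SPOCK2, -1.82 for SNORA35B, -1.11 for MAP3K21, -1.09 for FHOD3, -0.985 for CFAP57, -0.87 for PRKG1, -0.773 for SOCS2, -0.717 for RAB4A and -0.63 for ZNF274.

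For list members given by their fold change, it was 7.14 for ATP6V0D2, 4.06 for OASL, 3.44 for SELE, 3.34 for CD14, 3.31 for IL1RN, 2.93 for CD36, 2.48 for TYROBP, 2.43 for LGALS3, 2.24 for TLR1, 2.17 for FCER1G and 2.02 for C3AR1. It was 1.96 for MSR1, 1.79 for TLR4, 1.78 for TLR8, 1.77 for GBP1, 1.71 for ATP6V1B2, 1.69 for AIF1, 1.68 for ATP6V1A, 1.63 for IFIT3, 1.58 for SOAT1, 1.4 for TLR2, 1.35 for ATP6V1H, 1.33 for ATP6V1C1, 1.17 for FTL and 0.75 for CAT.

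Of 292 combinations of gene described by library and group, 24 had a library far from the others by Dixon's test. Its threshold of 1 in 20 holds for normal values. CPM are skewed, and combinations with few counts were skipped, so that the 24 cannot be compared with that rate. The PV CHT library L230 accounted for 7 of them. It was high for ENSOCUG00000010503 (124 CPM, next 2.23), SPP1 (186.4 CPM, next 91.1), IL7R (3.24, next 1.37), CENPE (6.38, next 3.49), SPOCK2 (65.5, next 26.8) and COL1A1 (618, next 298), and low for MAP3K21 (4.34, next 8.202). AoV Ctrl L240 was high for the heart muscle genes MYH7 (10038 CPM, next 3543), TNNC1 (287, next 101) and MB (198.8, next 63.2), and for TIMD4 (0.368, next 0.0962). AoV CHT L151 was high for SPOCK2 (38.7 CPM) and C1QA (90.0), and AoV CHT L265 high for MMP12 (592) and low for PRKG1 (85.1).

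Among the other libraries, AoV Ctrl L150 was low for CTSB (270.9 CPM) and high for PRKG1 (383), AoV Ctrl L277 high for STARD4 (7.67), AoV Ctrl L182 high for CENPE (4.52) and AoV Ctrl L198 high for ENSOCUG00000010503 (1.34). PV Ctrl L153 was low for CTSB (278.3), PV Ctrl L263 high for MAP3K21 (11.02) and ACTA2 (416), and PV CHT L188 high for APOD (1284.5).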

How the results depend on the processing

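AoV calls (1833) numbered 1154 with Ctrl and CHT libraries alone, 1125 with the plate as covariate, 826 on plate 1 and 2962 without the 4 libraries rich in heart muscle RNA. PV calls (23) numbered 121 in DESeq2 and 69 with both valves in 1 model, and the both class (18) held 91 and 52 genes. The right only class (1 gene) held 4 in DESeq2, 2 with both valves in 1 model, and 0 with Ctrl and CHT libraries alone, with the plate as covariate, on plate 1, with either replicate block by rabbit, and without the 4 libraries. The total interaction count (702) and the total of left only genes stayed within 1.5 times under all of these, at up to 937 interactions and between 446 and 747 left only genes, but the smaller group of interactions lower in AoV (61) ranged from 25 with the plate as covariate to 205 in DESeq2, and left only genes that fell (27) from 8 to 113 under the same settings. With DESeq2's size factors in edgeR the AoV calls were split into 1176 higher and 691 lower. The cause of these shifts was not tested.

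Leaving out 1 library at a time gave 1320 to 2628 AoV calls, 19 to 25 PV calls, 528 to 964 interactions, 448 to 774 left only, 14 to 20 shared and 0 to 2 right only genes. Of 121 called values of the genes described by library, 19 were lost in some of these 26 fits. No value of a named gene that was called changed sign under an alternative.

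With the rabbit as replicate block over all treatments, 831 interactions were called and 641 genes were left only, and over Ctrl and CHT 495 genes had a larger and 66 a smaller response in AoV, with 470 left only. Over all treatments the block ended the interaction calls of ENSOCUG00000010503, CD36, FTL, SELE and SPOCK2 and added CSF1R and MMP12, and over Ctrl and CHT it also ended those of ADAM9, CAT, GRID2IP, SOCS2, TFRC and TLR8; it changed no other call among named genes. On 1 plate, AoV CHT can be compared with AoV Ctrl only through the 3 AoV Ctrl libraries of plate 1. The fit with the plate as covariate also draws on the Lard and IR/CHT libraries, which lie on both plates.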

Other observations

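TIMD4, which rose in PV of the CHT rabbits, was also present in the PV of rabbits that received the CHT diet and cardiac irradiation with 24 Gy (IR/CHT). All 7 PV IR/CHT libraries held 0.738 to 15.6 CPM of TIMD4 (median 2.76), above every PV Ctrl library. The 7 PV libraries of rabbits on a diet with 5% lard, which received the same vitamin D2, held 0 to 0.402 CPM (median 0). In AoV, the IR/CHT libraries held 0 to 1.52 CPM (median 0.0381) and the Lard libraries at most 0.0505 CPM. These groups enter no test of the comparison between Ctrl and CHT beyond the shared estimate of the spread.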
